A study of Mus musculus with 6 samples.

Results

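The TFII-I family of mouse transcription factors has 3 genes, Gtf2ird1, Gtf2i and Gtf2ird2, and these were taken by symbol from the 26814 gene symbols of a table of RNA-Seq counts from lip tissue. The table compares mice of the Gtf2ird1 tm1Hrd knockout line with wild type mice, so it holds the gene that was targeted together with its relatives. All 6 mice were adult females on the C57BL/6J background, 3 of the genotype Gtf2ird1 KO and 3 wild type (WT), and each gave 1 library from the top lip. The labels do not say which part of Gtf2ird1 is altered in the KO line, and a count per gene sums the reads of all its exons. The level of Gtf2ird1 was higher, not lower, in the knockout group. The groups are therefore called here by their labels, the libraries labelled KO and the WT libraries. The study took tail biopsies to check the genotypes and described overgrown, wrinkled lips in its KO mice, so the naming makes no claim about the genotype.

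Proteins of the TFII-I family carry several copies of a helix-loop-helix-like domain called the I-repeat, and they act in the nucleus as activators or repressors of transcription. Gtf2i encodes TFII-I itself, which binds initiator and E-box elements and also takes part in signalling in the cytoplasm. Gtf2ird1 encodes a DNA-binding relative that has been described to bind its own promoter region, and Gtf2ird2 encodes a relative that carries a domain derived from a transposon. In humans the 3 genes lie together in or beside the segment that is deleted in Williams-Beuren syndrome.

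The 3 genes also lie together on mouse chromosome 5 (GRCm38), in the order Gtf2ird2, Gtf2i, Gtf2ird1. Gtf2ird1 (ENSMUSG00000023079) spans chr5:134357656-134456716 on the minus strand, Gtf2i (ENSMUSG00000060261) spans chr5:134237834-134314760 on the minus strand, and Gtf2ird2 (ENSMUSG00000015942) spans chr5:134184019-134224355 on the plus strand. The bases that precede each start are printed because they show the motif for which GTF2IRD1 is known and how the promoters of the family differ. Each line gives the 250 bases before the RefSeq start of the gene, 5′ to 3′ on the strand of the gene, from GRCm38.p6, with the letters GGATTA, its reverse complement TAATCC, and the E-box CACGTG in capitals. The stretches are chr5:134456717-134456966 (minus) for Gtf2ird1, chr5:134314761-134315010 (minus) for Gtf2i and chr5:134183788-134184037 (plus) for Gtf2ird2.
Gtf2ird1: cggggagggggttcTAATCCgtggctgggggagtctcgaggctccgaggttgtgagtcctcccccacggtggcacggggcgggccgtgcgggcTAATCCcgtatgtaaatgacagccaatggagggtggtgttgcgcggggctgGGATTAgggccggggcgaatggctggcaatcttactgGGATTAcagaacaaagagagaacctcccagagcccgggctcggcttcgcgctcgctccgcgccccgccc
Gtf2i: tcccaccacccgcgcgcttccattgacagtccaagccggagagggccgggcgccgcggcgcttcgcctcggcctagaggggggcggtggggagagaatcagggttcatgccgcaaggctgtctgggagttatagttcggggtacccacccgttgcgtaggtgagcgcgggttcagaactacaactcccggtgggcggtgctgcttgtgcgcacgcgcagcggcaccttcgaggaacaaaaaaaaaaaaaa
Gtf2ird2: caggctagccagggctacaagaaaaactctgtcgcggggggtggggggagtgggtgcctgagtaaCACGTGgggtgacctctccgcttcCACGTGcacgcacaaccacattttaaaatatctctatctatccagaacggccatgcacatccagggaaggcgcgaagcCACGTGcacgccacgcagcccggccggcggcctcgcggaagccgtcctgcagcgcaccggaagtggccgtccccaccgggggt

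GGATTA is the core of the element to which GTF2IRD1 has been described to bind, and it was searched on both strands because of that knowledge. The RefSeq window of 250 bases before and 50 bases after the start held 4 copies in Gtf2ird1, 2 on each strand. The copies lay at -236 to -231 and -157 to -152 as TAATCC, and at -106 to -101 and -69 to -64 as GGATTA. Gtf2i and Gtf2ird2 had 0 copies in their windows. Among 32851 windows of the same length, 7.06% held at least 1 copy and 0.359% at least 2. At least 4 copies were found in only 2 windows (0.00609%), those of Gtf2ird1 and of Zfp352, a gene that did not pass the filter on low counts. In a wider search, where the first letter of GGATTA could also be A and the last could also be G, Gtf2ird1 had 5 matches and its relatives 0, and 0.198% of the windows held at least 4. The palindrome CACGTG, an E-box, occurred 3 times in the window of Gtf2ird2 and not in those of Gtf2ird1 and Gtf2i, and 0.0883% of all windows held at least 3. The GC content of the printed stretches was 66% for Gtf2ird1, 63.2% for Gtf2i and 64% for Gtf2ird2. A match is a run of letters and no measurement of binding.

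**Figure D1:**
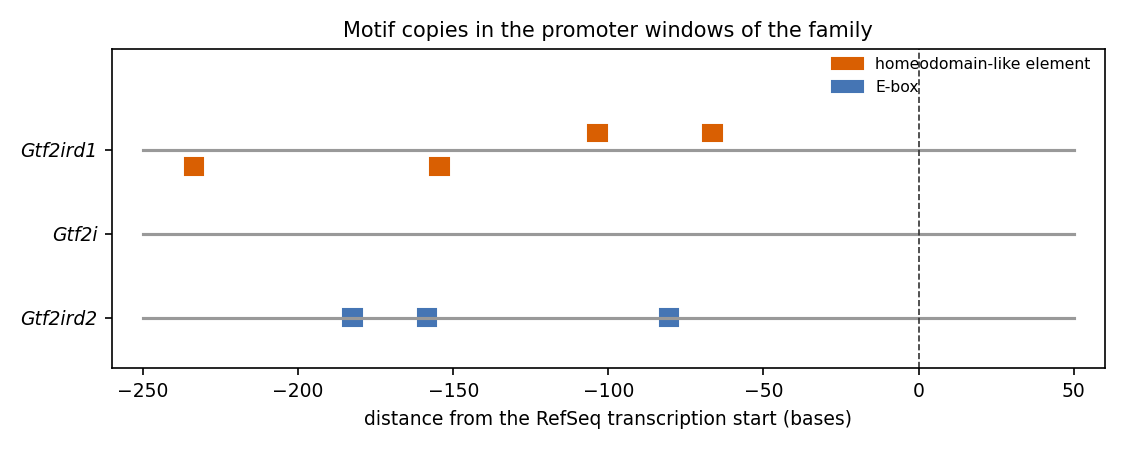
Positions of the motif copies in the promoter windows of the 3 genes, in bases from the RefSeq start (dashed line). Orange boxes are GGATTA copies, above the line when on the strand of the gene and below it when on the other strand, and blue boxes are CACGTG. Gtf2ird1 holds 4 orange boxes, Gtf2ird2 holds 3 blue ones and Gtf2i holds none.

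The libraries had 20164081 to 29491767 counts on genes, and TMM factors between 0.952 and 1.07. RNA integrity numbers were 9 to 9.5 in all libraries. Of the 26814 symbols, 15009 reached 1 CPM, a count scaled to the size of its library, in 3 or more libraries and were tested, and the 3 family genes were among them. Summed markers of several cell types in the lip differed between the groups, and their values follow those of the 3 genes. Levels are TMM-scaled CPM, written as mean ± SD over 3 mice, and tests are edgeR's quasi-likelihood test with Benjamini-Hochberg adjustment over all 15009 genes. In bulk tissue, fewer cells of a type and less RNA per cell cannot be told apart.

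Gtf2ird1, the targeted gene, rose in the libraries labelled KO, by 1.11 on the log2 scale, while Gtf2i and Gtf2ird2 did not pass the test. The counts of Gtf2ird1 were 2155 in WT1, 1651 in WT2 and 1571 in WT3, against 3245 in KO1, 4930 in KO2 and 3151 in KO3. All libraries labelled KO lay above all WT libraries. The mean level rose from 73.0 ± 4.50 CPM in WT to 157 ± 11.7 CPM where the label was KO. The log2 fold change had a 95% confidence interval of 0.82 to 1.40 (adjusted p = 0.0018 in edgeR's quasi-likelihood test). Against the background, 4.38% of tested genes were called higher and 2.09% lower, and 13.5% had all libraries labelled KO above all WT libraries.

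The rise of Gtf2ird1 was found under each scaling of the libraries that was tried. Hprt, a housekeeping gene of purine salvage that the study used as its reference in PCR, gave a scale within each library that needs no normalization. There were 1.12, 1.12 and 1.10 counts of Gtf2ird1 per count of Hprt in WT1 to WT3, and 1.98, 2.29 and 2.05 in KO1 to KO3. The groups did not overlap on this scale either. Scaled by Hprt alone, the log2 fold change of Gtf2ird1 was 0.92 (adjusted p = 0.0064 in edgeR's quasi-likelihood test). This scaling moved the median log2 fold change of all tested genes from -0.02 to -0.21, and relative to its own median Gtf2ird1 remained higher. Hprt itself had a log2 fold change of 0.20 (adjusted p = 0.339).

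Gtf2i, the most abundant member in WT lip, had CPM of 259 in WT1, 226 in WT2 and 249 in WT3. In the libraries labelled KO it had 187 in KO1, 211 in KO2 and 235 in KO3. KO1 and KO2 lay below the WT libraries and KO3 lay among them, so the groups overlapped. The mean was 245 ± 16.7 CPM in WT against 211 ± 24.3 CPM under the label KO. The log2 fold change of -0.21 had a 95% confidence interval of -0.53 to 0.10 and did not pass the test (adjusted p = 0.327 in edgeR's quasi-likelihood test).

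Gtf2ird2 was the least abundant member in every library. Its counts were 297, 274 and 199 in WT1 to WT3 and 173, 299 and 183 in KO1 to KO3. The count of 173 in KO1 has an exact 95% Poisson interval of 148 to 201, which covers counting error only. In CPM the values were 10.8, 11.6 and 8.95 in WT1 to WT3 and 8.85, 9.83 and 8.37 in KO1 to KO3. KO2 lay above WT3, so the groups overlapped. The log2 fold change of -0.21 had a 95% confidence interval of -0.61 to 0.18 (adjusted p = 0.426 in edgeR's quasi-likelihood test). With 3 mice per group, the intervals of Gtf2i and Gtf2ird2 both included 0, and the upper bound of neither reached the lower bound of 0.82 for Gtf2ird1.

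**Figure D2:**
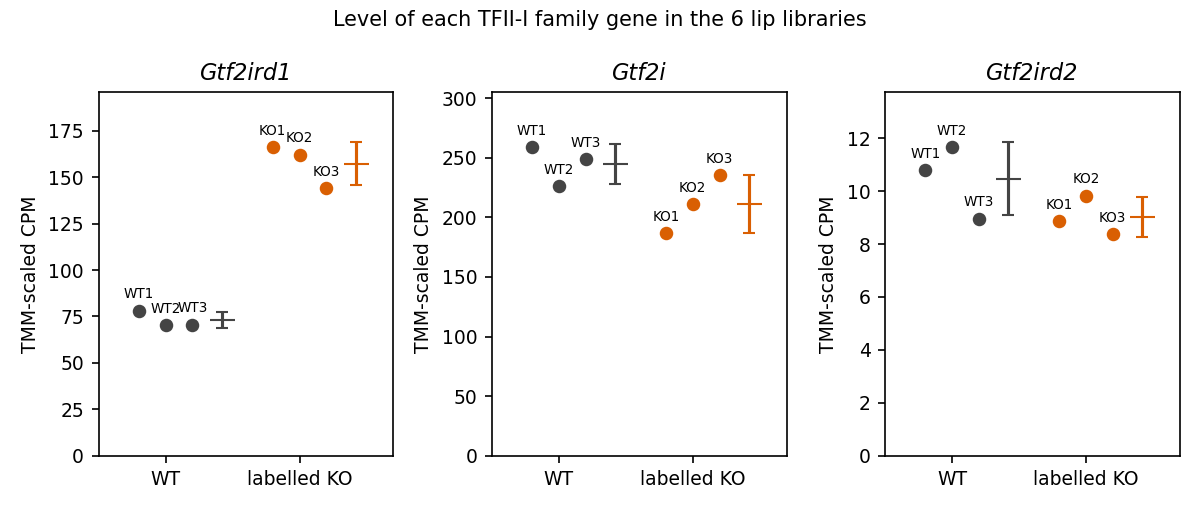
Level of Gtf2ird1, Gtf2i and Gtf2ird2 in each library, in TMM-scaled CPM on an axis that starts at 0 and differs between panels. Points are single mice, and the bar beside them is the mean ± SD of 3 mice. For Gtf2ird1 the libraries labelled KO lie between 144 and 166 CPM and the WT libraries between 70.2 and 78.2, while the groups overlap for both relatives.

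Levels of cell type markers moved with the groups. Summed markers of suprabasal keratinocytes were 21625 to 27025 CPM in WT and 30290 to 46120 in the libraries labelled KO, and those of skeletal muscle were 11404 to 14417 and 5653 to 8827. Hair follicle markers summed to 5820 to 7239 CPM in WT against 3458 to 4898 under the label KO, and fibroblast markers to 6355 to 8325 against 2730 to 6660. All libraries labelled KO lay below WT in 6 of 6 hair follicle markers, 7 of 8 skeletal muscle markers and 0 of 6 fibroblast markers, where 18.1% of all tested genes did so. Of the 8 suprabasal markers, 3 lay above WT in all libraries labelled KO and 1 below, and the sum was carried mainly by the keratins Krt1 and Krt10. Ivl rose in this list, while Krt2, another suprabasal keratin, fell by 4.52 on the log2 scale (adjusted p = 4.02e-05 in edgeR's quasi-likelihood test). The sums of wound keratinocyte markers were 3848 to 5510 CPM in WT and 5793 to 8959 in the libraries labelled KO. Smooth muscle (144 to 175 against 93.7 to 134), adipocyte (75.3 to 97.5 against 51.4 to 55.0) and Schwann cell markers (193 to 205 against 84.0 to 165) had lower sums, without overlap. The 2 brown fat markers went opposite ways, and their sum (87.6 to 112 against 59.9 to 86.9) was carried by Cidea. Ucp1, which did not pass the filter on low counts, had 0.436, 0.298 and 0.270 CPM in WT1 to WT3. In KO1 to KO3 Ucp1 had 1.38, 1.28 and 0.732 CPM. Basal keratinocyte markers overlapped, at 10798 to 11788 and 10204 to 12054 CPM, as did those of leukocytes, at 121 to 143 and 109 to 157. KO3 was the library labelled KO nearest to WT in the sums of suprabasal, muscle, hair follicle and fibroblast markers, and it was also the nearest in the levels of Gtf2ird1 and Gtf2i, but not in that of Gtf2ird2. Their part in the values of the family, and in those of the gene lists given further on, was not tested.

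The question of compensation within the family is whether a relative rose, which is read from the relative's own level. Ratios of counts within a library show instead whether the members changed unequally, without any scaling between libraries. A ratio with Gtf2ird1 on top follows the rise of Gtf2ird1 itself, so it cannot decide that question. Gtf2ird1 had 0.302, 0.310 and 0.284 counts per count of Gtf2i in WT1 to WT3. In KO1 to KO3 it had 0.890, 0.769 and 0.612. All libraries labelled KO lay above the WT libraries, with KO3 nearest to them. The mean log2 ratio differed by 1.32, a 2.51-fold change, with p = 0.1 in a two-sided exact permutation test. This is the smallest p that 3 mice against 3 allow, and it is 0.15 after adjustment over the 3 ratios compared.

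The ratio of Gtf2ird1 to Gtf2ird2 rose in the same libraries. It was 7.26, 6.03 and 7.89 in WT1 to WT3 and 18.8, 16.5 and 17.2 in KO1 to KO3, without overlap between the groups. The difference was 1.32 on the log2 scale, or 2.49-fold (exact permutation p = 0.1, adjusted 0.15). Between the relatives no difference was detected. Gtf2ird2 had 0.0417, 0.0515 and 0.0360 counts per count of Gtf2i in WT1 to WT3, and 0.0474, 0.0466 and 0.0356 in KO1 to KO3. The log2 difference was 0.01 (exact permutation p = 1), and its sign turned to -0.0066, -0.11, -0.064 and -0.052 when WT1, WT3, KO1 or KO2 was left out.

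**Figure D3:**
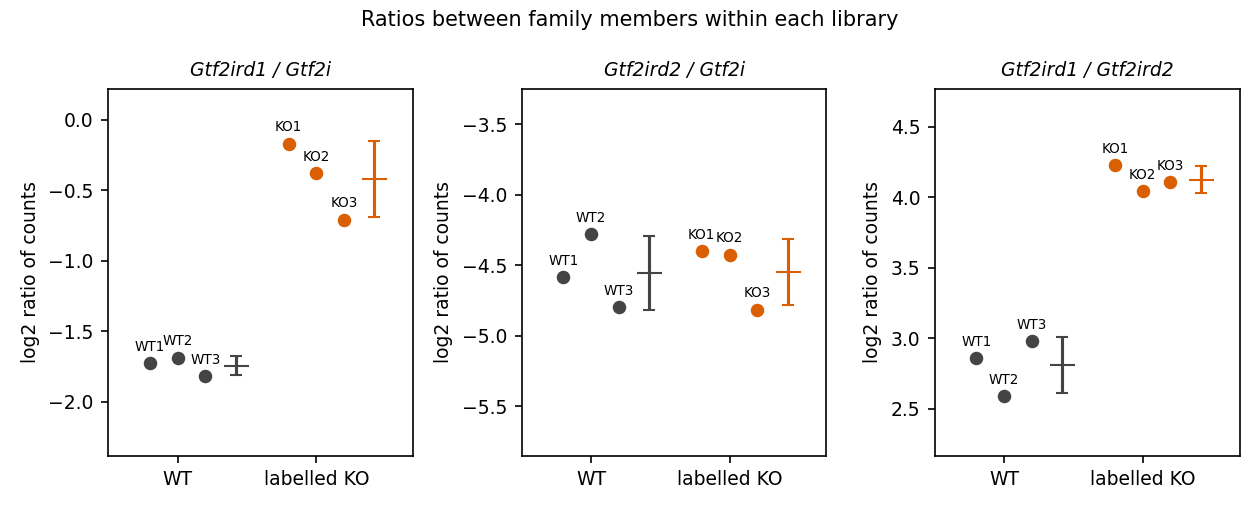
Log2 ratio of counts between family members within each library, with points for single mice and the mean ± SD of 3 mice beside them. All panels span the same range of log2 units. Both ratios with Gtf2ird1 on top are higher in every library labelled KO, by 1.32 on average, while the ratio of Gtf2ird2 to Gtf2i overlaps between the groups.

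The summed level of the relatives was not higher in the libraries labelled KO. Gtf2i and Gtf2ird2 together had 269, 238 and 258 CPM in WT1 to WT3 and 195, 221 and 244 CPM in KO1 to KO3. KO3 lay among the WT libraries, and the log2 difference was -0.22 (two-sided exact permutation p = 0.2). The whole family had 348, 308 and 328 CPM in WT1 to WT3 and 362, 383 and 388 CPM in KO1 to KO3. Here the groups did not overlap, with a log2 difference of 0.20 (exact permutation p = 0.1, the smallest this design allows). The rise of Gtf2ird1 thus made up more than the whole difference of the sum, since the sum of its relatives was not higher.

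Counts also depend on the length of a transcript, so the members were compared with each other per kilobase (kb) of exon. The union of annotated exons was 7.594 kb for Gtf2ird1, 10.199 kb for Gtf2i and 6.2 kb for Gtf2ird2. In WT lip the order was Gtf2i, with 24.0 ± 1.63 CPM per kb, then Gtf2ird1 with 9.62 ± 0.593, then Gtf2ird2 with 1.69 ± 0.222. No ranges over libraries overlapped in this order. In the libraries labelled KO, Gtf2ird1 had 20.7 ± 1.54 CPM per kb and Gtf2i 20.7 ± 2.38, so these neighbours did not differ beyond their spread. Gtf2ird2 remained last with 1.45 ± 0.120 CPM per kb. Which of the upper members leads depends on the length used. With the longest transcript as length, Gtf2ird1 had 42.6 and Gtf2i 47.3 CPM per kb in the libraries labelled KO, and with the longest coding sequence 47.5 and 70.4.

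As a share of the family per kb of exon, Gtf2ird1 went from 27.3% ± 0.686 in WT to 48.4% ± 4.45 in the libraries labelled KO. The share of Gtf2i was 67.9% ± 1.41 in WT and 48.2% ± 4.63 in the libraries labelled KO. Gtf2ird2 held 4.80% ± 0.778 and 3.39% ± 0.265. By library, Gtf2ird1 held 52.6% in KO1, 49.0% in KO2 and 43.7% in KO3, against 26.5% to 27.8% in WT, so the libraries labelled KO varied more than the WT libraries. Shares sum to 100%, so a gain of one member lowers the others. With the longest coding sequence as length, the share of Gtf2ird1 was 20.5% in WT and 39.3% in the libraries labelled KO.

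**Figure D4:**
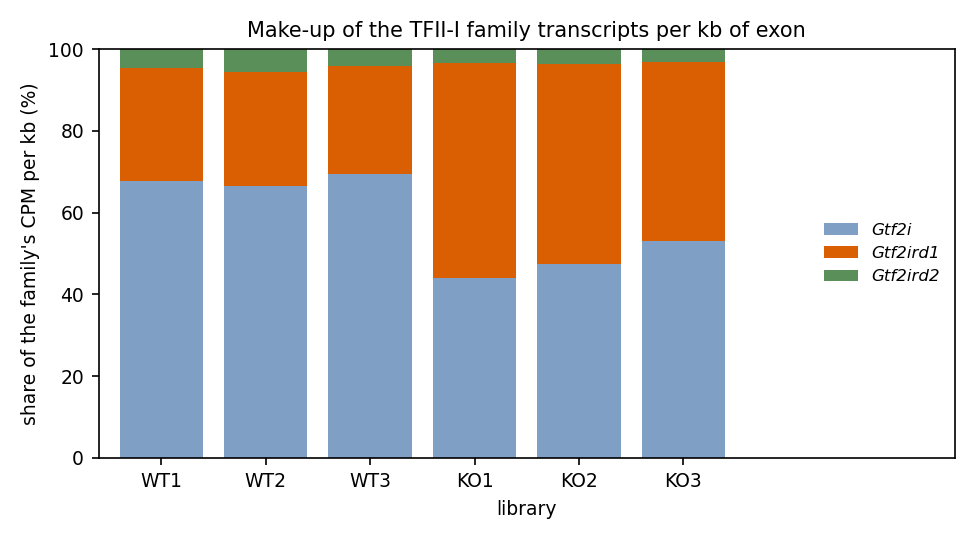
Share of each gene in the family's summed CPM per kb of exon (union of annotated exons), in percent, by library. The orange segment of Gtf2ird1 takes 26.5% to 27.8% in the WT libraries and 43.7% to 52.6% in the libraries labelled KO, and the green segment of Gtf2ird2 stays the smallest throughout.

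Set among 14243 tested genes with a gene model, Gtf2ird1 ranked 4712 from the top by mean CPM per kb in WT and 2356 in the libraries labelled KO. The ranks of Gtf2i were 1989 and 2365. Gtf2ird2 ranked 10854 and 11279. The median of all ranked genes was 5.21 CPM per kb in WT and 5.43 in the libraries labelled KO, so Gtf2ird2 lay below a typical expressed gene of the lip and its relatives above it.

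Counting of reads at the family's loci could bring in reads of other genes. Gtf2ird1 shares 194 exon bases with Gm42882, an antisense gene not analysed here, and Gtf2ird2 shares 408 exon bases with Ncf1 on the opposite strand. The strand setting of the counting is not given in the sources used here, so reads of these stretches cannot be told apart. Ncf1, a subunit of the phagocyte oxidase, had 202, 195 and 138 counts in WT1 to WT3 and 108, 159 and 140 in KO1 to KO3, fewer than Gtf2ird2 in each library. Its log2 fold change was -0.35 (adjusted p = 0.246 in edgeR's quasi-likelihood test). How the counting treated reads that overlap 2 genes is not given either, so the values of Gtf2ird2 are uncertain by the reads of the shared stretch. Of the 100-base words of the members' transcripts, 74 of 8786 (0.842%) in Gtf2ird1 and 153 of 6237 (2.45%) in Gtf2ird2 also occur in transcripts of another gene. For Gtf2i it was 0 of 11193, and 0 words were shared between members of the family.

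Genes reported to be bound or regulated by GTF2IRD1 were listed next, 17 in all, of which 10 passed the filter on low counts. Of these 10, 1 fell, 0 rose and 9 did not pass the test, where 2.09% of all tested genes were called lower, with a median log2 fold change of -0.01 against -0.02 over all tested genes. Tgfb2, a growth factor ligand of the TGF-beta family, had CPM of 39.4, 35.7 and 35.2 in WT1 to WT3 and 20.1, 16.1 and 24.6 in KO1 to KO3. The groups did not overlap, where 18.1% of all tested genes had all libraries labelled KO below all WT libraries. It fell by 0.86 on the log2 scale (adjusted p = 0.0311 in edgeR's quasi-likelihood test). This call was lost in 5 of 6 fits that left out a library, with adjusted p up to 0.166, and was kept without KO3. Ccnd3, a D-type cyclin, had a log2 fold change of -0.54 (adjusted p = 0.081 in edgeR's quasi-likelihood test). It passed the test without KO3 (0.0049), a fit that called 2395 of 14802 genes lower. In the other 5 fits that left out a library Ccnd3 did not pass, with adjusted p up to 0.326. Bax, Shroom3 and Tgfb2 hold GGATTA in their promoter windows, and the log2 fold changes of Bax (-0.04) and Shroom3 (0.06) were near 0. Gsc, the homeobox gene goosecoid, was among those below the filter.

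Of 9 genes for protein partners of GTF2IRD1, 0 passed the test in either direction, where 4.38% of all tested genes were called higher and 2.09% lower. Their median log2 fold change was 0.02 against -0.02 over all tested genes. At an unadjusted p under 0.05 there were 2 of the 9, where 4439 of 15009 tested genes had such a p. Of the 9, 1 was called by edgeR's exact test, 2 by DESeq2, 0 by limma-voom and 2 by the quasi-likelihood test without KO3. The exact test called 1165 genes higher and 1073 lower over all tested genes. Without KO3, 2496 genes were called higher and 2395 lower of 14802 tested. The list is partial: Kpna2, Atf7ip and Parpbp, which the study names as partners that changed in these libraries, are not in it. Kpna2, an importin, had a log2 fold change of 1.07 (adjusted p = 0.0188 in edgeR's quasi-likelihood test). For Atf7ip it was 0.76 (adjusted p = 0.0370) and for Parpbp 0.76 (adjusted p = 0.0638). These 3 were picked by the study from these samples and added here after their values were seen, so they are no independent evidence. Of the 9, Smad2, a transducer of TGF-beta signals, was the one whose libraries labelled KO all lay above WT, where 13.5% of all tested genes did so. Smad2 had 59.5, 55.4 and 56.7 CPM in KO1 to KO3 against 41.2, 47.2 and 42.5 in WT1 to WT3 (log2 fold change 0.39, adjusted p = 0.0902). Pias2, a SUMO ligase, was the one whose libraries labelled KO all lay below, where 18.1% of all tested genes did so. Its log2 fold change was -0.18 (adjusted p = 0.394). Of 13 genes for partners of TFII-I, 0 passed edgeR's quasi-likelihood test, where 4.38% of all tested genes were called higher and 2.09% lower. Their median log2 fold change was 0.11. At an unadjusted p under 0.05 there were 3 of the 13, where 4439 of 15009 tested genes had such a p. Of the 13, edgeR's exact test called 1, DESeq2 2, limma-voom 0 and the quasi-likelihood test without KO3 2. Hdac1, Kdm1a and Rcor1 were the 3 of 13 whose libraries labelled KO all lay above WT, where 13.5% of all tested genes did so. Their log2 fold changes were 0.31, 0.11 and 0.26 (adjusted p = 0.131, 0.524 and 0.201 in edgeR's quasi-likelihood test). In the other 10 genes the groups overlapped, among them Hdac2 (0.52), Hmg20b (-0.15) and Phf21a (-0.08).

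Of 4 genes known as targets of TFII-I, 1 rose, 0 fell and 3 did not pass the test, where 4.38% of all tested genes were called higher and 2.09% lower. Hspa5, a chaperone of the endoplasmic reticulum, had CPM of 245, 311 and 302 in WT1 to WT3 and 471, 478 and 464 in KO1 to KO3. The groups did not overlap for this gene, and the rise was 0.72 on the log2 scale (adjusted p = 0.0257 in edgeR's quasi-likelihood test). The call was lost in 4 of 6 fits that left out a library, with adjusted p up to 0.112, and under scaling by Hprt (0.0979). Those 4 fits with a library left out called 208 to 323 genes higher, against 657 with all libraries. Of 12 other alternatives, 11 kept the call of Hspa5. Fos, an immediate early gene, had 59.3 CPM in KO1 and 12.2 to 18.2 in the other 5 libraries, so its log2 fold change of 0.98 rests on that library (adjusted p = 0.237). Kdr, a receptor for vascular growth factor, had a log2 fold change of -0.30 (adjusted p = 0.471).

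The general transcription factors, 12 genes that share the GTF2 symbol and Tbp, the TATA-binding protein, are no relatives of the family in sequence, but form the machinery at the promoter with which TFII-I was first found. Of these 13 genes, 1 rose, 0 fell and 12 did not pass the test, where 4.38% of all tested genes were called higher. The median log2 fold change was 0.23, which is the value of Tbp, and 12 of 13 were positive, against a median of -0.02 and 7208 positive of 15009 genes tested. A list of 7 reference (housekeeping) genes, Tbp and Hprt among them, had a median of 0.20 with 5 positive, so a positive median was not particular to the general factors. At an unadjusted p under 0.05 there were 4 of the 13 general factors, where 4439 of 15009 tested genes had such a p. Gtf2f1, the large subunit of TFIIF, had CPM of 34.0, 48.1 and 41.1 in WT1 to WT3 and 93.1, 76.2 and 67.4 in KO1 to KO3. It rose by 0.94 on the log2 scale (adjusted p = 0.0229 in edgeR's quasi-likelihood test), a call lost in 4 of 6 fits that left out a library, with adjusted p up to 0.102. Those 4 fits called 208 to 323 genes higher, against 657 with all libraries. All 12 other alternatives kept the call of Gtf2f1. Scaled by Hprt alone, the median of these genes was 0.02, against -0.21 over all tested genes. Of 7 neighbours in the segment, such as Clip2 and Limk1, 0 passed edgeR's quasi-likelihood test, where 4.38% of all tested genes were called higher and 2.09% lower. Among the 7, 0 had an unadjusted p under 0.05, where 4439 of 15009 tested genes did, and 0 were called by edgeR's exact test, DESeq2 or limma-voom. Without KO3, 1 of the 7 was called lower, in a fit that called 2395 of 14802 genes lower. The median log2 fold change of the neighbours was -0.10, and 1 of the 7 was positive.

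**Figure D5:**
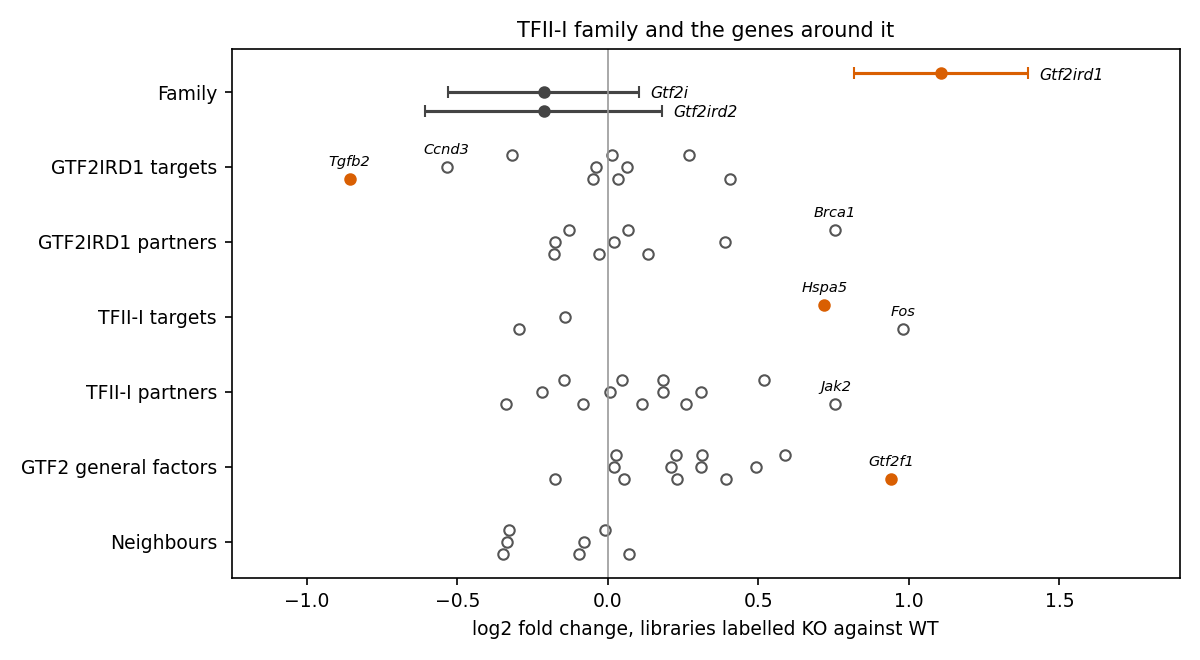
Log2 fold change of the libraries labelled KO against the WT libraries. The top line gives the 3 family genes with 95% confidence intervals, and each line beneath gives the tested genes of a list as points, filled where the adjusted p was under 0.05. Gtf2ird1 at 1.11 lies to the right of all list genes, Tgfb2 is filled on the left, and Hspa5 and Gtf2f1 are filled on the right.

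Across the 6 libraries, the levels of Gtf2ird1 and Gtf2i had a Pearson correlation of -0.73, those of Gtf2ird1 and Gtf2ird2 of -0.57, and those of Gtf2i and Gtf2ird2 of 0.23. These are descriptions over 6 points that share the difference between the groups. The tested genes most like Gtf2ird1 were Ephb1, a receptor tyrosine kinase, with r = 0.999, 4930425F17Rik, Gm7592, Loxhd1 and 0610008F07Rik. Ephb1 had CPM of 30.9, 28.0 and 28.1 in WT1 to WT3 and 90.1, 83.4 and 71.2 in KO1 to KO3, with the libraries in the same order as for Gtf2ird1. Those most like Gtf2i were Phf2, a histone demethylase, with r = 0.999, Frzb, Syt9, Khdrbs3 and 5031439G07Rik. For Gtf2ird2 they were Pdpr with r = 0.989, Arl10, Tab2, S100pbp and Ybx2. Correlations above 0.95 were reached by 381 genes for Gtf2ird1, 701 for Gtf2i and 20 for Gtf2ird2, of 15008 compared.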

How the data were processed

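RNA of the top lip of 3 KO and 3 WT mice was sequenced as 1 paired-end library per mouse. The deposited values are raw counts per gene symbol, which the authors made by mapping reads to GRCm38 with TopHat2 2.0.8 and Bowtie2 2.1.0 and counting with HTSeq. The counting strand is not given in the sources used here. All 6 columns were used and 0 were left out. Genes that reached 1 CPM in 3 or more libraries entered the test in R 4.3.3 with edgeR 4.0.16 (TMM, estimateDisp, glmQLFit and glmQLFTest) and Benjamini-Hochberg adjustment at 0.05. The quasi-likelihood p-values set the difference between the groups against the variation between these mice, which edgeR moderates across genes. Ratios and sums were compared with exact permutation tests (scipy 1.17.1). Exon lengths and overlapping genes were read from GENCODE models on GRCm38, and promoter windows from RefSeq on GRCm38.p6. The fit was checked on simulated data with known changes.

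Alternatives were edgeR's exact test, DESeq2 1.42.0, limma-voom (limma 3.58.1), the older quasi-likelihood fit, robust estimation, scaling by the size factors of DESeq2, by total counts, by the upper quartile or by Hprt, testing all genes or those with 10 counts or more per library, a replicate block and leaving out each library. Other lengths were used for levels per kb, and Spearman correlation for likeness. Genes named are the family, the lists of reported targets, partners, general factors, neighbours and reference genes, and genes that overlap the family. The 5 tested genes with the highest Pearson correlation to each member are named as well. Members and lists were chosen with earlier results of these data known.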

Additional observations from a re-analysis of the deposited data

How the results depend on the processing

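The log2 fold change of Gtf2ird1 kept its direction and passed the threshold in all 18 alternatives, from 0.92 (scaling by Hprt) to 1.17, with adjusted p from 9.23e-13 to 0.0185. Gtf2i did not pass in any of its 18 (-0.39 to -0.07, adjusted p 0.139 to 0.829), nor did Gtf2ird2 (-0.40 to -0.07, 0.244 to 0.807). Leaving out each library gave 1.08 to 1.17, -0.29 to -0.07 and -0.32 to -0.07. Same-numbered libraries correlated at -0.19, 0.29 and 0.31 in their deviations from the group mean, and unlike-numbered ones at -0.50 to 0.41. The labels do not say whether the numbers pair mice. These values cannot decide it, because deviations from a mean of 3 libraries depend on each other. With the replicate block Gtf2ird1 had 1.11 (adjusted p = 0.0058 in edgeR's quasi-likelihood test), and 580 genes were higher and 217 lower. The log2 difference of the ratio of Gtf2ird2 to Gtf2i changed sign without WT1 (-0.0066), WT3 (-0.11), KO1 (-0.064) or KO2 (-0.052), and ranged from -0.11 to 0.15. The other ratios ranged from 1.20 to 1.47 (to Gtf2i) and 1.21 to 1.40 (to Gtf2ird2).

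With the longest transcript as length, shares in WT were 25.5% for Gtf2ird1, 70.7% for Gtf2i and 3.88% for Gtf2ird2, which held 2.80% in the libraries labelled KO. With the longest coding sequence they were 20.5%, 76.0% and 3.48% in WT and 39.3%, 58.0% and 2.65% in the libraries labelled KO. By Spearman correlation, 1 of the 5 genes most like Gtf2ird1 and 1 of those most like Gtf2ird2 were tied for the highest likeness. Over all genes, 657 were higher and 314 lower. The exact test called 1165 and 1073, and DESeq2 1511 and 898. The genes called lower were 207 with DESeq2's size factors, 204 with no filter and 204 with at least 10 counts in every library. Leaving out a library gave 208 to 2496 higher and 18 to 2395 lower, the highest of both without KO3. The causes were not tested. With 3 mice per group no exact permutation test can go below 0.1, and Gtf2ird2 has the fewest counts of the family.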

Other observations

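Genes with several GGATTA copies in the promoter window were looked up after the data had been seen. Of 10864 tested genes with a window, 4.09% were called higher and 2.08% lower. At least 1 copy was found in 754 of them, of which 5.17% were higher and 1.86% lower. At least 2 copies were found in 33, of which 6 were higher (18.2%) and 2 lower (6.06%). The higher genes were Gtf2ird1, Ercc4, an excision repair nuclease subunit (log2 fold change 1.92), Gm11545 (2.21), the cilium receptor Gpr161 (1.47), the anion transporter Slc26a1 (1.59) and the nuclear body gene Sp110 (7.82). The lower genes were Wnt11, a secreted Wnt ligand (-0.67), and the coronin Coro6 (-1.21). Gtf2ird1 belongs to this count and prompted the search, so it is no independent case. Whether these shares differ from the rest was not tested.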
